A study of Homo sapiens with 6 samples.

Results

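YAP1 and WWTR1 (which encodes TAZ), TEAD1, their negative regulators LATS2, AMOTL1 and AMOTL2, the LATS partner AJUBA, and the target genes CCN1, CCN2 and ANKRD1 are 10 of the 35750 genes listed for T98G, a human glioblastoma cell line grown in serum. They were picked by gene symbol, and each symbol matched 1 row. RNA captured on oligo(dT) beads was sequenced in 3 libraries labelled shSLC1A5, which carry a short hairpin RNA against SLC1A5, and 3 labelled shControl. SLC1A5 is an importer of glutamine and other neutral amino acids, and the series asks how gene expression changes when it is depleted. All 6 libraries come from the same line and medium, and no label says that replicates were cultured separately. The p-values therefore rest on the variation among these 6 libraries, some or all of which may be technical.

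YAP and TAZ are paralogous coactivators that have no DNA-binding domain of their own and act mainly through the TEAD transcription factors. In the Hippo pathway the MST kinases activate the LATS kinases, and LATS phosphorylates YAP and TAZ, which holds them in the cytoplasm and marks them for degradation. Activity is therefore set largely at the protein level, and transcripts of direct targets such as CCN1, CCN2 and ANKRD1 are widely used as its readout. LATS2 and AMOTL2 are both restrainers of YAP and targets of it, and YAP signalling has been studied in glioblastoma for its link to invasion and growth.

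Transcripts of CCN1 and CCN2, 2 secreted matricellular proteins, were lower in shSLC1A5 than in shControl, while the level of YAP1 was nearly the same in both groups. CCN2 averaged 22.8 ± 0.452 FPKM in shSLC1A5 and 47.6 ± 2.76 FPKM in shControl, and CCN1 averaged 78.2 ± 2.89 and 151 ± 4.14 FPKM (SD, n = 3 each; FPKM are fragments per kilobase of gene model, scaled to library size). AJUBA, AMOTL2, LATS2 and TEAD1 also fell, by smaller amounts, and WWTR1 rose. YAP1 and AMOTL1 did not pass the test, and ANKRD1 was too low to enter it. In all, 6 of the 9 genes tested fell and 1 rose by edgeR's quasi-likelihood test at an adjusted p under 0.05, where 19.0% of the 11841 genes tested fell, 20.2% rose and 39.2% passed in either direction. The FPKM of the groups did not overlap for 7 of the 9, against 49.6% of all genes tested. AJUBA, CCN1 and CCN2 were past the test with a log2 fold change of -0.5 or lower, which 1.62% of tested genes were, and CCN1 and CCN2 with -0.9 or lower, which 0.431% were. Without shSLC1A5 replicate 1, 5 fell and 1 rose, where 1911 of the 11841 genes tested fell and 2071 rose.

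**Figure D1:**
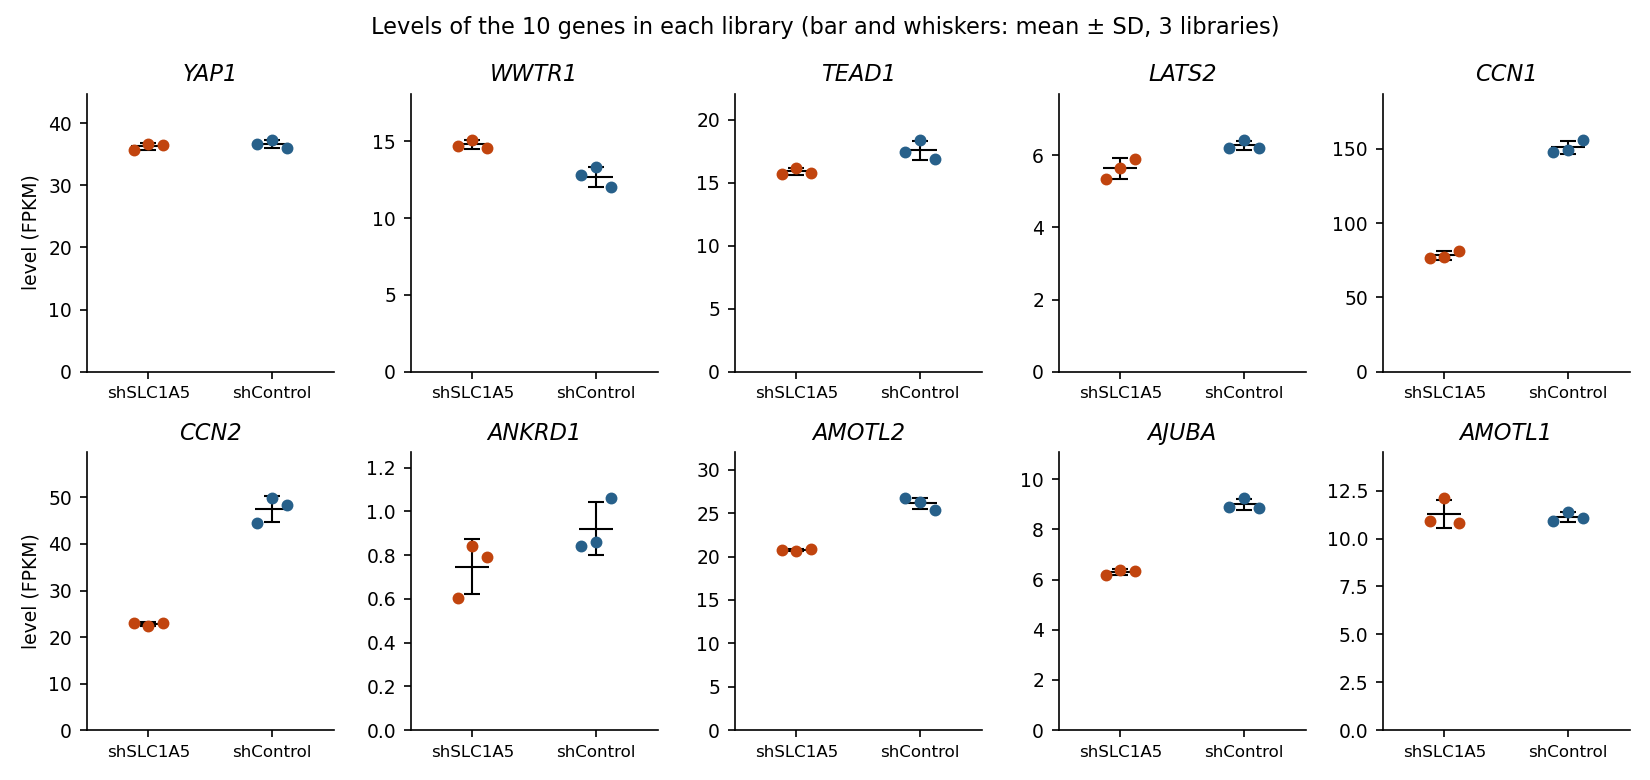
Level in FPKM on the y axis, from 0, of each of the 10 genes in the 3 shSLC1A5 libraries (left) and the 3 shControl libraries (right), with the mean and SD as bar and whiskers. CCN1, CCN2, AMOTL2, AJUBA, TEAD1 and LATS2 are below the range of shControl in each shSLC1A5 library, WWTR1 is above it, and YAP1, AMOTL1 and ANKRD1 overlap.

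TEAD factors recognise the core GGAATG, and the 250 bases before the transcription start of 8 of the 10 genes, with 11 starts in all, could be read from RefSeq on GRCh38.p14. TEAD1 and CCN1 had no entry. The core, searched on both strands as GGAATG or CATTCC, was present at 5 of the 11 starts, against 11.9% of all 35116 starts in the table. CCN2 held 3 copies, beginning 169, 104 and 95 bases before its start, a number reached by 0.0826% of all starts, and ANKRD1 held 2, beginning 220 and 128 bases before its start, where 0.940% of all starts have 2 or more. AMOTL2, AJUBA and YAP1 held 1 copy each, for AMOTL2 and AJUBA at the second of their 2 starts. WWTR1, LATS2 and AMOTL1 held none in these windows. The AP-1 site TGANTCA was found once, before ANKRD1 (6.57% of all starts hold it), and the CArG box, the site of SRF, at none of the 11 starts (1.16% of all starts). A match is a description of the letters and not evidence of binding. The windows are shown for the 4 target or regulator genes that hold the core, with the core in capitals, each read 5′ to 3′ on the strand of the gene, which is the minus strand for all 4. They lie at chr6:131951373-131951622 for CCN2, chr10:90921088-90921337 for ANKRD1, chr3:134374448-134374697 for the second start of AMOTL2 and chr14:22976843-22977092 for the second start of AJUBA.
CCN2: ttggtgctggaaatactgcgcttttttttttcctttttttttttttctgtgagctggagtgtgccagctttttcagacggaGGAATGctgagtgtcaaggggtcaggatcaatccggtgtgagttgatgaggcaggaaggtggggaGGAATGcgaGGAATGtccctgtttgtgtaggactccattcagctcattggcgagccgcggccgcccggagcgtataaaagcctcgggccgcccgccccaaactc
ANKRD1: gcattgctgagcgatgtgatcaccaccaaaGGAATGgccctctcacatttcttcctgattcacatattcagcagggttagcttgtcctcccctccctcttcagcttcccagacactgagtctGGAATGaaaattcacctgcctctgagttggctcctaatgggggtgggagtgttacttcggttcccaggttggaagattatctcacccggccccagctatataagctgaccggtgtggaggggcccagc
AMOTL2: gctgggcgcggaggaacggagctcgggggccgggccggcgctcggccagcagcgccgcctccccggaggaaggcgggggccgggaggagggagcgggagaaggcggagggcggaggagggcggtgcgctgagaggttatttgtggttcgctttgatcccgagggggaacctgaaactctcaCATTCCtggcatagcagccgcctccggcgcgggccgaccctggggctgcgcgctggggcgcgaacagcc
AJUBA: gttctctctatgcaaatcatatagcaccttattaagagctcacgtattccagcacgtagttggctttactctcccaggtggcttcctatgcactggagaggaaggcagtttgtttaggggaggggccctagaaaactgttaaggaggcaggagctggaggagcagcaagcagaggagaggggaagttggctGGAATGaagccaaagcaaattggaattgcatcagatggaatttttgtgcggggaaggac

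SLC1A5 itself was 87.5, 88.0 and 88.3 FPKM in the shSLC1A5 libraries, against 95.0, 95.3 and 97.1 FPKM in the shControl libraries. The groups did not overlap, with a percent change of -9.02% (log2 fold change -0.14, SE 0.018, adjusted p = 1.93e-04 by edgeR), or -0.35 on the log2 scale in a fit adjusted for transcript GC content and length, called the GC-adjusted fit from here on. Totals ran from 59327548 to 70802167 counts per library. Of 6 markers set for the glioma line, 5 were abundant, between 33.3 and 921 FPKM in every library (VIM, CD44, CAV1, FN1 and S100A6), and the neural progenitor marker NES was low, at 0.170 to 0.206 FPKM in shSLC1A5 and 0.0792 to 0.113 FPKM in shControl. Markers of other cell types were more frequent in shSLC1A5: those of B cells (6 of 6 in the table) summed to 620 to 1148 counts in shSLC1A5 libraries and 14 to 26 in shControl libraries, and those of endothelium and microglia (5 of 5) to 597 to 1011 and 52 to 87 counts. Of the last 5, PECAM1, CDH5 and VWF were higher in every shSLC1A5 library than in any shControl library. PTPRC had 369, 20 and 19 counts in shSLC1A5 replicates 1 to 3 and 0, 0 and 10 in shControl. The microglial marker AIF1 had 5, 0 and 0 counts in shSLC1A5 and 0 in each shControl library. Markers of neutrophils (7 of 7) summed to 4175 counts in shSLC1A5 replicate 1 and to 44 and 47 in the other 2, against 33 to 38 in shControl, and those of red cells (4 of 6) to 779, 20 and 7 counts in shSLC1A5, against 0 to 6 in shControl. The neutrophil gene MPO was at 0 in all 6 libraries. In bulk RNA, fewer cells of a type and less RNA per cell cannot be told apart, and the part of these transcripts in the results below was not tested. The fold changes of CCN1 and CCN2 were -0.95 and -1.09 (log2) without shSLC1A5 replicate 1.

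YAP1 (ENSG00000137693, chromosome 11, 102110447 to 102233424, plus strand), the coactivator YAP, was at 35.6, 36.7 and 36.4 FPKM in the shSLC1A5 libraries and at 36.6, 37.3 and 36.0 FPKM in the shControl libraries. The groups overlapped. The log2 fold change was -0.03 with a 95% interval of -0.08 to 0.02 (adjusted p = 0.329 by edgeR), which as a percent change is -5.15% to 1.36%. In the GC-adjusted fit the value was 0.02.

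WWTR1 (ENSG00000018408, chromosome 3, 149517235 to 149736714, minus strand) was at 14.7, 15.1 and 14.6 FPKM in shSLC1A5 and at 12.8, 13.3 and 12.0 FPKM in shControl. All 3 shSLC1A5 libraries were above all 3 shControl libraries. WWTR1 rose by 0.21 in log2 units (SE 0.037, adjusted p = 0.00136 by edgeR), or 15.4%, with a 95% interval of 9.01% to 22.1%. The ratio of YAP1 to WWTR1 was 2.42, 2.43 and 2.50 in shSLC1A5 and 2.86, 2.82 and 2.99 in shControl, without overlap (exact two-sided permutation test, p = 0.1, which no 3 against 3 comparison can go below). The 2 genes together summed to 51.0 ± 0.709 FPKM in shSLC1A5 and 49.3 ± 1.30 FPKM in shControl (SD, n = 3), and these sums overlapped.

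TEAD1 (ENSG00000187079, chromosome 11, 12674421 to 12944737, plus strand), the TEAD factor with the highest level in these cells, was at 15.7, 16.2 and 15.8 FPKM in shSLC1A5 and 17.4, 18.4 and 16.9 FPKM in shControl. Every shSLC1A5 value was below every shControl value. TEAD1 fell by 0.16 in log2 units (SE 0.031, adjusted p = 0.00207 by edgeR), or by 0.10 in the GC-adjusted fit (adjusted p = 0.0137). The other 3 family members were TEAD4, at 9.98 ± 0.389 FPKM in shSLC1A5 and 10.3 ± 0.315 in shControl, TEAD2, at 9.80 ± 0.399 and 8.23 ± 0.360, and TEAD3, at 4.11 ± 0.312 and 3.95 ± 0.384 (SD, n = 3). TEAD2 rose by 0.24 on the log2 scale (adjusted p = 0.00576 by edgeR), a call lost in the GC-adjusted fit (0.10, adjusted p = 0.195). TEAD4 was at -0.07 (adjusted p = 0.402), or -0.25 in the GC-adjusted fit (adjusted p = 0.00888), and TEAD3 at 0.05 (adjusted p = 0.746), or -0.13 in the GC-adjusted fit (adjusted p = 0.382). TEAD1 made up 39.3%, 39.8% and 40.7% of the summed FPKM of the 4 TEAD genes in shSLC1A5 and 44.0%, 44.3% and 43.2% in shControl, without overlap (exact permutation p = 0.1). Of the 7 genes tested among the coactivators, TEAD factors and cofactors, 3 rose and 1 fell (20.2% and 19.0% of all genes tested), and in the GC-adjusted fit 1 rose and 2 fell (11.1% and 14.7%). The summed FPKM of the 4 TEAD genes was 39.8 ± 0.998 FPKM in shSLC1A5 and 40.1 ± 1.25 FPKM in shControl (SD, n = 3) and overlapped.

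**Figure D2:**
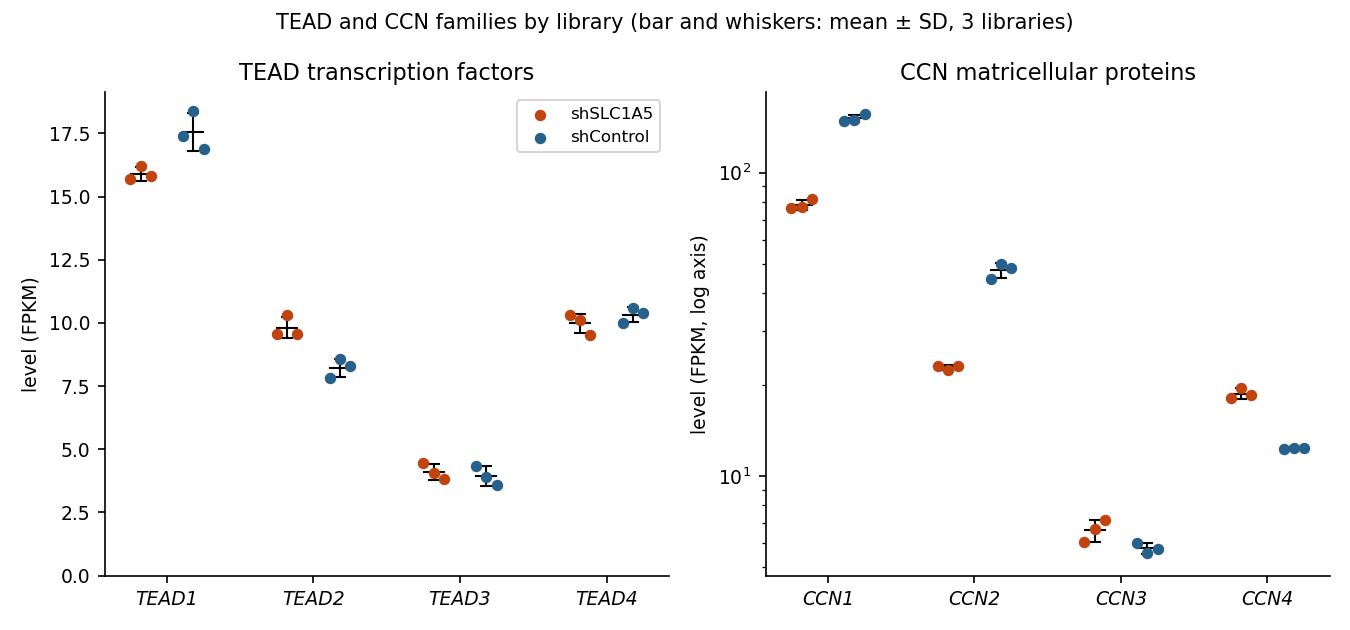
Level in FPKM of the 4 TEAD genes (left, linear axis from 0) and of 4 CCN genes (right, log axis) in each library, with shSLC1A5 left of shControl and the mean and SD as bar and whiskers. TEAD1 is lower and TEAD2 higher in shSLC1A5, CCN1 and CCN2 are lower, and CCN4 is higher (18.6 and 12.4 FPKM in shSLC1A5 and shControl).

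LATS2 (ENSG00000150457, chromosome 13, 20973036 to 21061586, minus strand), the kinase that inactivates YAP and TAZ and is itself induced by them, was at 5.35, 5.65 and 5.91 FPKM in shSLC1A5 and 6.21, 6.43 and 6.21 FPKM in shControl. The groups did not overlap, and the nearest values were 5.91 and 6.21. LATS2 fell by 0.17 in log2 units (SE 0.048, adjusted p = 0.0158 by edgeR). The call was lost without shSLC1A5 replicate 1, the lowest library (-0.14, adjusted p = 0.0737), and when no filter on low values was used (adjusted p = 0.0561). Its paralog LATS1 was at 4.50 FPKM in shSLC1A5 and 4.68 FPKM in shControl (log2 fold change -0.07, adjusted p = 0.278 by edgeR).

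AJUBA (ENSG00000129474, chromosome 14, 22971177 to 22982551, minus strand) encodes a LIM domain protein that binds and inhibits LATS kinases at tension-bearing junctions. It was at 6.18, 6.39 and 6.34 FPKM in shSLC1A5 and 8.89, 9.24 and 8.87 FPKM in shControl, and the groups were well apart. AJUBA fell by 0.53 in log2 units (SE 0.038, adjusted p = 2.22e-06 by edgeR), or by 0.58 in the GC-adjusted fit. LIMD1, a related LIM protein, was at 3.68 FPKM in shSLC1A5 and 3.50 FPKM in shControl (log2 fold change 0.06, adjusted p = 0.299 by edgeR).

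The angiomotin-like proteins AMOTL1 and AMOTL2 are junctional scaffolds that bind YAP and TAZ and keep them out of the nucleus. AMOTL2 (ENSG00000114019, chromosome 3, 134355874 to 134374594, minus strand) was at 20.8, 20.6 and 20.9 FPKM in shSLC1A5 and 26.7, 26.3 and 25.4 FPKM in shControl, with no overlap. AMOTL2 fell by 0.34 in log2 units (SE 0.028, adjusted p = 4.55e-06 by edgeR), or by 0.48 in the GC-adjusted fit. AMOTL1 (ENSG00000166025, chromosome 11, 94706431 to 94876748, plus strand) was at 10.9, 12.1 and 10.8 FPKM in shSLC1A5 and 10.9, 11.4 and 11.1 FPKM in shControl. These values were mixed, with the highest and the lowest both in shSLC1A5, and the log2 fold change was 0.01 with a 95% interval of -0.08 to 0.10 (adjusted p = 0.920 by edgeR). The ratio of AMOTL2 to AMOTL1 was 1.91, 1.70 and 1.93 in shSLC1A5 and 2.45, 2.31 and 2.28 in shControl, without overlap (exact permutation p = 0.1). AMOT, the founding member of the family, was at 1.89 FPKM in shSLC1A5 and 1.61 FPKM in shControl (adjusted p = 0.0937 by edgeR).

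CCN1 (ENSG00000142871, chromosome 1, 85580761 to 85583950, plus strand), also called CYR61, binds integrins and is induced within minutes by growth factors and by YAP and TAZ. It was at 76.2, 76.9 and 81.5 FPKM in shSLC1A5 and 148, 149 and 156 FPKM in shControl. The highest shSLC1A5 value was far below the lowest shControl value. CCN1 fell by 0.96 in log2 units (SE 0.027, adjusted p = 1.89e-09 by edgeR), a percent change of -48.7% with a 95% interval of -50.8% to -46.6%. Among the 10 genes it had the highest FPKM, and it ranked 251 among the 11841 genes tested by mean FPKM over the 6 libraries.

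CCN2 (ENSG00000118523, chromosome 6, 131948176 to 131951372, minus strand), known as connective tissue growth factor, was at 23.1, 22.3 and 23.0 FPKM in shSLC1A5 and 44.5, 49.8 and 48.4 FPKM in shControl. The shSLC1A5 values lay close together and well under shControl. CCN2 fell by 1.07 in log2 units (SE 0.044, adjusted p = 3.63e-08 by edgeR), a percent change of -52.5% with a 95% interval of -55.6% to -49.2%. By fold change CCN2 ranked 30 from the lowest of the 11841 genes, with CCN1 at 46, AJUBA at 222 and AMOTL2 at 546. Both fell by nearly the same factor: the ratio of CCN1 to CCN2 was 3.30, 3.45 and 3.55 in shSLC1A5 and 3.33, 3.00 and 3.22 in shControl, which overlap (exact permutation p = 0.2).

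ANKRD1 (ENSG00000148677, chromosome 10, 90912096 to 90921087, minus strand), a cardiac ankyrin repeat protein that is among the genes most often used to read out YAP activity, was close to the limit of what the data resolve. It had 87, 115 and 107 counts (0.604, 0.843 and 0.792 FPKM) in shSLC1A5 and 109, 109 and 126 counts (0.842, 0.862 and 1.06 FPKM) in shControl. The FPKM overlapped by a narrow margin, and the mean of 1 FPKM required for the test was not reached. In a fit with no filter on low values, where 10.1% of 34207 genes passed, the log2 fold change was -0.32 with a 95% interval of -0.82 to 0.19 (adjusted p = 0.434). That interval holds both 0 and the fold change of AJUBA, but not those of CCN1 (-0.96) or CCN2 (-1.07).

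**Figure D3:**
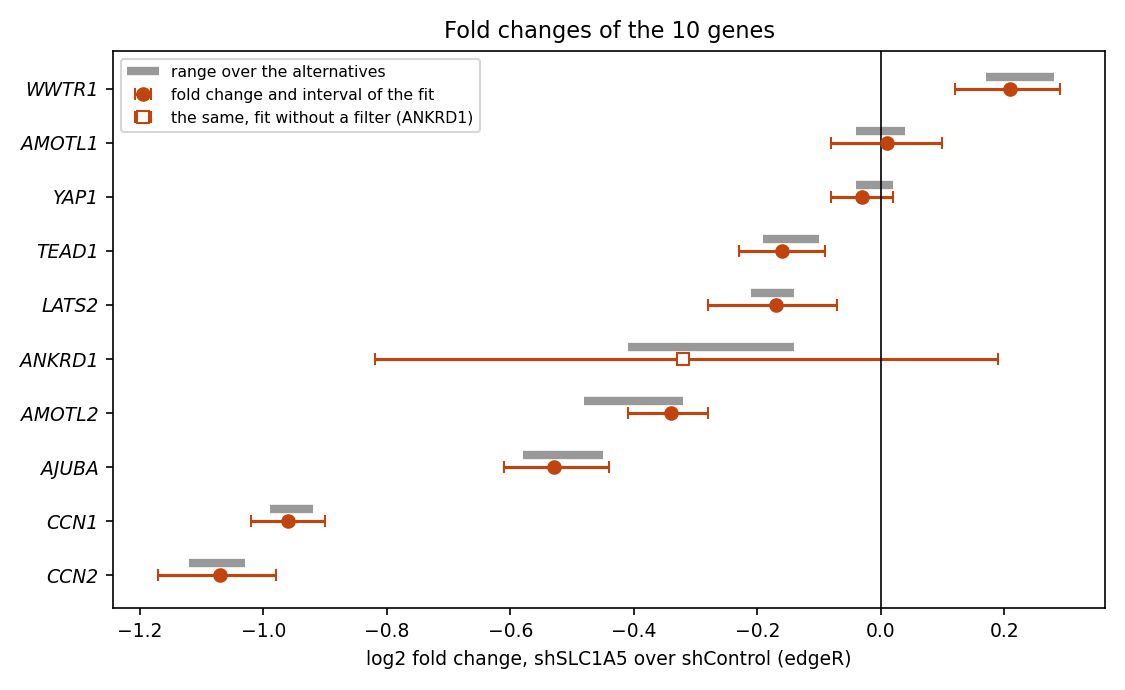
Log2 fold change of the 10 genes, shSLC1A5 over shControl, with its 95% interval from edgeR (points and whiskers; the open square for ANKRD1 is from the fit without a filter) and, as grey bars, the range over the alternative settings. CCN2 and CCN1 stand near -1.07 and -0.96, AJUBA and AMOTL2 follow at -0.53 and -0.34, and WWTR1 is the one gene whose interval lies above 0.

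Ordered by mean FPKM over the 6 libraries, the tested genes ran from CCN1 (rank 251 of 11841) through YAP1 (998), CCN2 (1041), AMOTL2 (1717), TEAD1 (2478), WWTR1 (3034), AMOTL1 (3735) and AJUBA (5146) to LATS2 (6123). CCN2 stood below YAP1 in each shSLC1A5 library (22.3 to 23.1 against 35.6 to 36.7 FPKM) and above it in each shControl library (44.5 to 49.8 against 36.0 to 37.3 FPKM). WWTR1 and TEAD1 were closer in shSLC1A5 (14.8 ± 0.251 and 15.9 ± 0.248 FPKM) than in shControl (12.7 ± 0.621 and 17.6 ± 0.764 FPKM; SD, n = 3), with TEAD1 higher in both. Within groups the tested genes were steady: the coefficient of variation of the FPKM was 0.678% to 6.40% in shSLC1A5 and 1.87% to 5.80% in shControl, against 16.8% and 12.8% for ANKRD1. Genes that overlap these loci in GENCODE 29 and are listed in the table had at most 116 counts in any library. Other annotated genes overlap YAP1, TEAD1, LATS2, AJUBA and AMOTL1 and were not analysed here, and the part of overlapping genes in these levels was not tested.

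**Figure D4:**
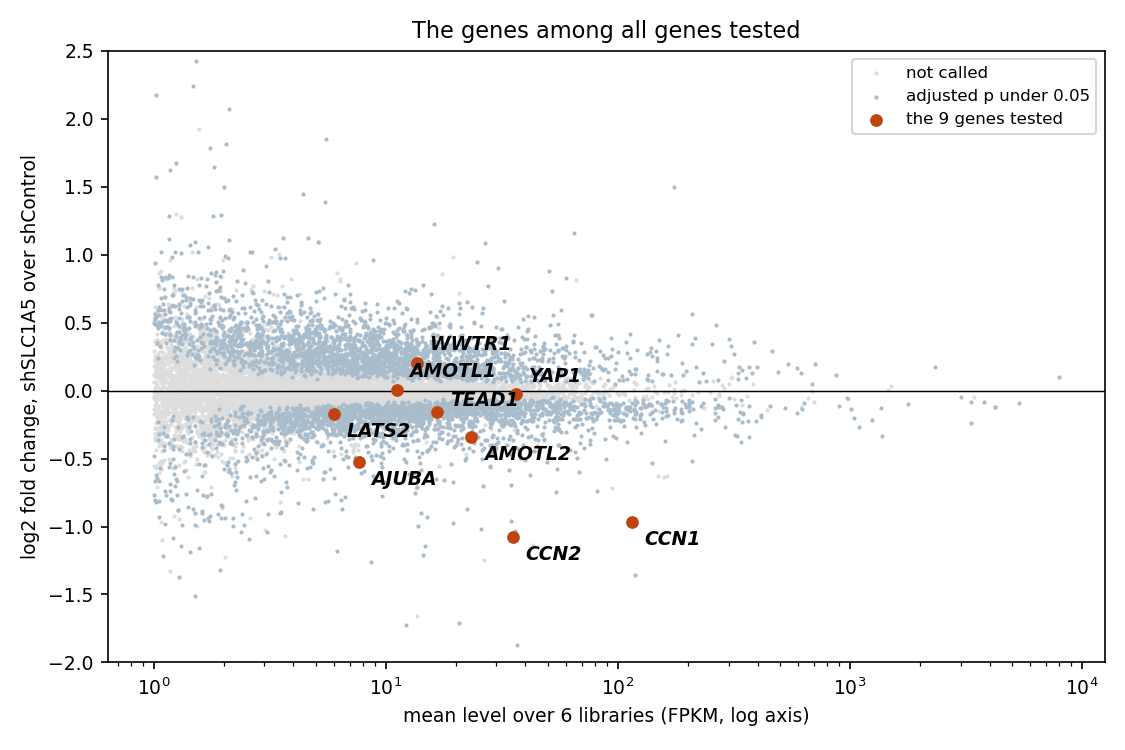
Log2 fold change, shSLC1A5 over shControl (y axis), against mean FPKM over the 6 libraries (x axis, log) for the 11841 genes tested, with genes past the threshold in blue and the 9 tested genes in red. CCN1 and CCN2 lie far below most genes of their level, and 29 genes outside the y range are not drawn.

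The wider set of YAP and TAZ targets, a signature of 22 genes that shares 5 with the 10 described, went mostly but not uniformly the same way. Of 20 members tested, 13 fell, 4 rose and 3 did not pass the test (median log2 fold change -0.19, against -0.01 over all genes tested), where 19.0% of all genes tested fell and 20.2% rose. In the GC-adjusted fit 15 fell and 2 rose, where 14.7% of all genes tested fell and 11.1% rose (25.8% in either direction). Of the 16 that are not among the 10 genes, 9 fell, 4 rose and 3 did not pass (median -0.17), against the same 19.0% and 20.2% of all genes tested. NT5E, the ectonucleotidase CD73, fell to 33.1 ± 0.798 FPKM in shSLC1A5, against 50.5 ± 1.80 FPKM in shControl. GADD45A, a stress and DNA damage response gene, fell to 32.0 ± 2.06 FPKM, against 44.8 ± 3.34 FPKM in shControl, and the receptor tyrosine kinase AXL to 59.6 ± 0.424 FPKM, against 77.3 ± 0.858 FPKM (SD, n = 3). IGFBP3, which binds insulin-like growth factors, rose instead, to 27.5 ± 0.878 FPKM against 17.3 ± 0.271 FPKM in shControl (log2 fold change 0.65, adjusted p = 1.36e-07 by edgeR). F3, tissue factor, rose by 0.30 on the log2 scale, to 134 ± 0.629 FPKM in shSLC1A5 against 108 ± 1.58 FPKM in shControl.

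In the CCN family, 4 of 6 genes were tested. CCN4, a WNT-induced member, rose to 18.6 ± 0.743 FPKM in shSLC1A5, against 12.4 ± 0.0847 FPKM in shControl (log2 fold change 0.58, SE 0.036, adjusted p = 8.29e-07 by edgeR), opposite to CCN1 and CCN2. CCN3 was at 6.62 ± 0.547 and 5.77 ± 0.234 FPKM (SD, n = 3; log2 fold change 0.18, adjusted p = 0.0862 by edgeR, or 0.24 with adjusted p = 0.0448 in the GC-adjusted fit). CCN5 and CCN6 were listed at 0 in the 3 shSLC1A5 libraries and averaged 0.00978 and 0.0271 FPKM in shControl, too low for a fold.

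The Hippo kinases and their adaptors went both ways. Of 15 tested, 4 rose, 5 fell and 6 did not pass (median -0.05), where 20.2% of all genes tested rose and 19.0% fell. In the GC-adjusted fit 2 rose and 3 fell (11.1% and 14.7% of all genes). There were 3 that fell without shSLC1A5 replicate 1 or without shSLC1A5 replicate 2, where 1911 and 1840 of the 11841 genes tested fell. MAP4K4, which phosphorylates LATS in parallel to the MST kinases, had the highest level of the list and fell by 0.26 on the log2 scale, to 33.1 ± 0.639 FPKM in shSLC1A5 against 39.3 ± 0.552 FPKM in shControl. TAOK3 fell by 0.34 and MAP4K2 rose by 0.32, or by 0.24 in the GC-adjusted fit. TAOK2 rose by 0.32, or was at 0.04 in the GC-adjusted fit (adjusted p = 0.520). MOB1A, the coactivator of LATS, fell by 0.08, with the call lost in the GC-adjusted fit (adjusted p = 0.961) and without shSLC1A5 replicate 1 or 2 (adjusted p = 0.0725 and 0.0629). SAV1, the scaffold of the MST kinases, fell by 0.27 (adjusted p = 0.0319 by edgeR) with overlapping groups, and its call was lost in the GC-adjusted fit (adjusted p = 0.129) and without shSLC1A5 replicate 2 or 3 or shControl replicate 2 or 3 (adjusted p = 0.0818 to 0.130). The MST kinases themselves, STK3 and STK4, had log2 fold changes of -0.002 and -0.05 (adjusted p = 0.981 and 0.391 by edgeR).

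Among junction and membrane scaffolds that feed into the pathway, 6 of 16 tested fell, 2 rose and 8 did not pass (median -0.08), where 19.0% of all genes tested fell and 20.2% rose. In the GC-adjusted fit 7 fell and 0 rose (14.7% and 11.1% of all genes). FRMD6, a FERM domain protein upstream of the Hippo kinases, fell to 4.36 ± 0.119 FPKM in shSLC1A5, against 6.56 ± 0.344 FPKM in shControl. WWC1, also called KIBRA, fell by 0.57 on the log2 scale, to 0.856 ± 0.134 against 1.26 ± 0.104 FPKM, and the tight junction protein TJP1 fell by 0.27. RASSF1 rose by 0.46 and SCRIB, a polarity scaffold, by 0.26, but in the GC-adjusted fit RASSF1 was at 0.16 (adjusted p = 0.188) and SCRIB at -0.10 (adjusted p = 0.118). The atypical cadherin FAT1 was at 15.1 ± 0.440 FPKM in shSLC1A5 and 15.4 ± 0.675 FPKM in shControl (adjusted p = 0.350). Of the LIM proteins that bind LATS and the STRIPAK phosphatase complex that inactivates the MST kinases, 2 of 10 tested fell, 2 rose and 6 did not pass (median 0.04), close to the 19.0% and 20.2% of all genes tested. In the GC-adjusted fit 2 fell and 1 rose (14.7% and 11.1% of all genes). SLMAP fell by 0.23, STRN4 rose by 0.33 and PPP2R1A by 0.12, the last 2 with their calls lost in the GC-adjusted fit (adjusted p = 0.381 and 0.211), and MOB4 was at 13.6 ± 0.704 and 13.8 ± 0.402 FPKM (SD, n = 3). VGLL4, a TEAD cofactor that competes with YAP, rose by 0.21 (adjusted p = 0.0212 by edgeR), a call lost in the GC-adjusted fit (adjusted p = 0.0523) and without shSLC1A5 replicate 2 or 3 or shControl replicate 1 or 3 (adjusted p = 0.0517 to 0.0855).

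**Figure D5:**
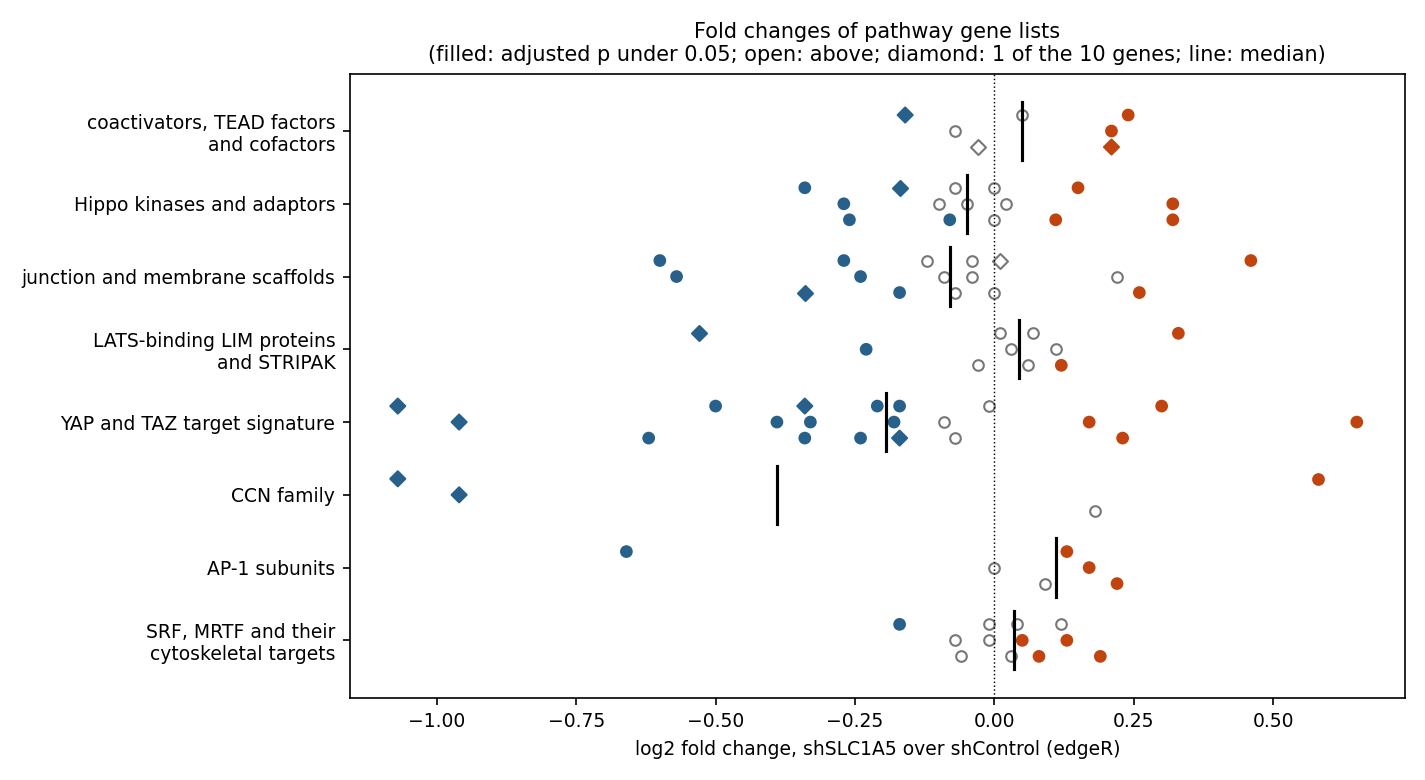
Log2 fold change, shSLC1A5 over shControl (x axis), of each tested gene in 8 pathway lists (rows), filled red where higher or blue where lower at an adjusted p under 0.05, open otherwise, with diamonds for the 10 genes and a line at each median. The target signature has its median at -0.19, the CCN family, with 4 tested genes, at -0.39, and the other lists between -0.08 and 0.11.

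AP-1 factors bind beside TEAD at many YAP target enhancers, and SRF with its cofactors MRTFA and MRTFB drives CCN1 and CCN2 as well. Of 6 AP-1 genes tested, 3 rose, 1 fell and 2 did not pass (median 0.11), where 20.2% of all genes tested rose and 19.0% fell, but in the GC-adjusted fit 0 rose and 3 fell (11.1% and 14.7% of all genes). ATF3 fell to 6.94 ± 0.0695 FPKM in shSLC1A5, against 10.9 ± 0.208 FPKM in shControl (log2 fold change -0.66, adjusted p = 8.29e-07 by edgeR). FOSL1, the AP-1 gene with the highest level, was at 194 ± 1.82 FPKM in shSLC1A5 and 192 ± 2.20 FPKM in shControl (adjusted p = 0.978), or -0.17 on the log2 scale in the GC-adjusted fit (adjusted p = 5.25e-05). JUNB, JUN and FOSL2 rose by 0.22, 0.17 and 0.13, and in the GC-adjusted fit they were at -0.08, 0.05 and 0.06 with their calls lost (adjusted p = 0.350, 0.407 and 0.294). The call of JUNB was also lost without shSLC1A5 replicate 2 (adjusted p = 0.0649), and that of FOSL2 without shSLC1A5 replicate 1 or 3 or shControl replicate 1 or 3 (adjusted p = 0.0581 to 0.132).

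Of 12 genes tested among SRF, the MRTF cofactors and their cytoskeletal targets, 4 rose, 1 fell and 7 did not pass (median 0.04), where 20.2% of all genes tested rose and 19.0% fell. In the GC-adjusted fit 3 rose and 4 fell (11.1% and 14.7% of all genes). SRF was at 7.61 and 7.85 FPKM in shSLC1A5 and shControl (log2 fold change -0.06, adjusted p = 0.358 by edgeR), or -0.28 in the GC-adjusted fit (adjusted p = 8.67e-04). TPM1, a tropomyosin, fell by 0.17 and the cytoplasmic actin gene ACTG1 rose by 0.19, or by 0.07 in the GC-adjusted fit. ACTB rose by 0.05, FLNA by 0.08 and MRTFA by 0.13, and in the GC-adjusted fit these were at -0.01 (adjusted p = 0.616), -0.17 (adjusted p = 6.98e-06) and -0.11 (adjusted p = 0.0889). The call of MRTFA was also lost without shSLC1A5 replicate 1 or 3 or shControl replicate 1 or 3 (adjusted p = 0.0513 to 0.0845).

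Over the 6 libraries, the levels most like that of CCN1 by Pearson correlation of log2(FPKM + 1) were those of MSMO1 (r = 0.9997), PRNP (r = 0.9992) and HSPA8 (r = 0.9991). MSMO1, an enzyme of cholesterol synthesis, fell to 9.73 ± 0.671 FPKM in shSLC1A5, against 31.5 ± 0.865 FPKM in shControl (SD, n = 3). Such values are a description of 2 groups of 3 libraries, since 158 tested genes had r over 0.99. Among the 10 genes CCN2 had r = 0.994, AJUBA 0.992, AMOTL2 0.984, LATS2 0.892, TEAD1 0.863, YAP1 0.343, AMOTL1 -0.18 and WWTR1 -0.947.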

How the data were processed

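RNA of 3 shSLC1A5 and 3 shControl libraries of T98G was compared. The submitters' processing notes name StringTie, HISAT2 and fastp. Build, annotation, strandedness and the handling of multi-mapped reads were not stated in what was used here. Per the file headers, the authors deposited counts per gene, taken here as raw, and FPKM for the same libraries. 0 columns were left unmapped. GENCODE 29 holds 34674 of the listed IDs, 99.97% of them at an overlapping GRCh38 position, and coordinates are GRCh38.

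Genes averaging 1 FPKM or more were tested with edgeR 4.0.16 in R 4.3.3 (TMM, group alone, quasi-likelihood F test). P-values were adjusted by Benjamini-Hochberg over the 11841 genes tested, with a threshold of 0.05. All p-values called adjusted are of this kind unless another tool is named. In simulated counts, 33.3%, 65% and 91.2% of genes changed by 0.25, 0.5 and 1 in log2 units were called in the right direction. Of unchanged genes, 0.146% were called. Only 63, 80 and 57 genes were changed there, far fewer than were called in the real data, so recovery may differ. The SE is the log2 fold change over the square root of F. The GC-adjusted fit added offsets from a loess curve (span 0.3) per library against GC content and length together, read from each gene's longest GENCODE 29 transcript (99.7% of tested genes had one). Fold changes rose with GC content (Spearman rho 0.49 across genes, which are not independent replicates). DESeq2 1.42.0, limma 3.58.1 on log2(FPKM + 1), log2(FPKM + 0.1) and quantile-normalized log2 CPM, other filters and scalings, a replicate block, and leaving out libraries singly, were alternatives. Same-group libraries had chi-square values per gene of 9.82 to 16.7, above counting noise, and were counted as separate samples.

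The genes, lists and tests were chosen with earlier results of these data known. Named beside the 10 genes are SLC1A5, up to 4 genes past the threshold with the largest change and the 2 of highest FPKM per list, the other TEAD and CCN genes, and the 3 genes most like CCN1. LATS1, LIMD1, AMOT, STK3, STK4 and SRF were chosen after their values were seen. Of the list genes, VGLL2, HBB and AHSP matched no row. Promoter windows are from RefSeq, GRCh38.p14. Intervals are 95% confidence intervals of the fold change, and their SE rests on the variation among these libraries.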

Additional observations from a re-analysis of the deposited data

How the results depend on the processing

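Over 19 alternatives (17 for ANKRD1), 180 of 188 log2 fold changes of the 10 genes kept their direction and side of the threshold. LATS2 lost its call without shSLC1A5 replicate 1 and without a filter, and YAP1 and AMOTL1, which were not called, changed sign. CCN1 ranged from -0.99 to -0.92, CCN2 from -1.12 to -1.03, AJUBA from -0.58 to -0.45, AMOTL2 from -0.48 to -0.32, TEAD1 from -0.19 to -0.10 and WWTR1 from 0.17 to 0.28, each called in all 19. With each library left out in turn, 5 or 6 of the 9 genes tested fell and 1 rose. Of the 11841 genes tested, 1836 to 1923 then fell and 2027 to 2158 rose.

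The GC-adjusted fit lowered the genes called higher to 1314, or 1237 with the replicate block added, against 2396. With it, alone or with the replicate block, values changed sign for YAP1 (0.02), TEAD3 (-0.13), SCRIB (-0.10), MOB4 (0.05), JUNB (-0.08 and -0.07), FOSL1 (-0.17), MRTFA (-0.11), FLNA (-0.17) and ACTB (-0.01). With quantile normalization YAP1 was at 0.01 and TEAD3 at -0.002. With filterByExpr AMOTL1 was at -0.004 and FOSL1 at -0.01, and without a filter FOSL1 was at -0.002. Leaving out single libraries, values of both signs were found for AMOTL1 (range -0.04 to 0.04), TEAD3 (-0.02 to 0.13), MOB4 (-0.06 to 0.003) and FOSL1 (-0.003 to 0.01). The cause was not tested.

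Replicate numbers did not pair the samples: deviations of same-numbered libraries correlated at -0.151, 0.0356 and -0.0343. No shSLC1A5 library correlated best with the shControl library of its own number. With the replicate block 2311 genes were higher and 2159 lower, and 6 of the 9 genes tested fell and 1 rose, as without it. Under the block SAV1 (adjusted p = 0.0574) and MRTFA (adjusted p = 0.0508) were not called. ANKRD1 rests on 87 to 126 counts per library.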
